A study of Mus musculus with 10 samples.

Results

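Bone morphogenetic protein (BMP) ligands and their secreted antagonists were followed in palates dissected from mouse embryos at stage E14.5, when the 2 shelves of the secondary palate are fusing. The list held 10 genes, the ligand genes Bmp2, Bmp3, Bmp4, Bmp5, Bmp6, Bmp7 and Gdf10 and the antagonist genes Nog, Grem1 and Chrd. Every probe set of the array whose annotation gives exactly 1 of these symbols was taken, which left 13 probe sets for 9 genes, of 45101 probe sets in all. Bmp7 and Bmp5 had 3 probe sets each, the other 7 genes had 1, and Bmp3 was not analysed here. The mutant group was Tgfbr2fl/fl;Wnt1-Cre, with 5 arrays, and the control group was Tgfbr2fl/fl without Cre, called wildtype in the titles, with 5 arrays; all 10 embryo samples were of strain C57B6. Floxed Tgfbr2, which encodes the TGF-beta type II receptor, was thus carried by both groups. Wnt1-Cre deletes them in cells of the neural crest, which form the palatal mesenchyme, while epithelium, endothelium and muscle cells of the shelf come from other lineages. Samples are numbered in the labels without naming separate embryos, so the p-values reflect sample-to-sample spread, part of which may be technical. The Y-linked gene Eif2s3y, given below, differed widely within each group, so the arrays of a group were not all repeats of the same material. The comparison asks which BMP ligands and inhibitors differ when neural crest cells of the palate lack the receptor.

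BMPs are secreted dimers of the TGF-beta superfamily. Many, but not all, of them bind type I and type II serine/threonine kinase receptors that lead to phosphorylation of SMAD1, SMAD5 and SMAD9. TGF-beta instead signals through TGFBR2 to SMAD2 and SMAD3. Noggin, gremlin 1 and chordin bind BMP ligands outside the cell and keep them from their receptors. In the mouse palate, Bmp4 acts in the anterior mesenchyme together with the homeobox gene Msx1, and mice without Nog have a cleft palate.

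The values are log2 signals per probe set, made by the authors with RMA and rounded to 1 decimal, so 1 unit is a 2-fold difference in signal. The number of arrays limits their precision. Control replicate 1 stood apart, at 80.3 on the first principal component (37.4% of the variance) against -21.0 to 2.72 for the other arrays. In that array 5 of the 13 probe sets lay farther from the group mean than in any other control, against 41.4% of all probe sets. The 3 probe sets of Tgfbr2 differed by -0.08, -0.04 and 0.08 (mutant minus control, log2), and no source used here places them relative to the floxed exons. The 13 palatal mesenchyme markers averaged 11.11 to 11.29 in mutant and 10.88 to 11.11 in control arrays, and the lowest of them, Osr1, averaged 9.01, so the labelled tissue carried its markers. Of these 13, 10 had positive log2 fold changes and 1 was called, Tbx22, a transcription factor gene of the palate, which was 0.62 higher in mutants (limma adjusted p = 0.0183 over genes) with no overlap between groups. Of 11 skeletal muscle markers 8 were lower in mutants and none higher, and their mean ran from 6.02 to 8.19 in mutant arrays and from 7.93 to 9.28 in control arrays. None of 12 measured epithelial markers was called (log2 mean 10.02 to 10.37 in mutant and 9.89 to 10.57 in control arrays, smallest adjusted p = 0.0638, 4 with an unadjusted p under 0.05). Among markers of other cells, 2 of 9 for tooth germ, 1 of 9 for cartilage and 1 of 8 for endothelium were lower in mutants and none was higher, while none of 5 for osteoblasts, 5 for blood and 8 for macrophages was called. Over all genes, 5.36% were called lower and 2.90% higher in mutants, so single calls in short lists say little. The part of these cell types in the results below was not tested beyond the covariate fits given there. In bulk tissue, fewer cells of a type and less RNA per cell cannot be told apart.

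Gdf10 was lower in mutant palate, Bmp2 was slightly higher, and the other 7 measured genes were not called. With limma across 45037 probe sets and Benjamini-Hochberg adjustment, 1 of the 13 probe sets was called lower and none higher at an adjusted p under 0.05, where 2.18% of all probe sets were called lower and 1.07% higher. At an unadjusted p under 0.05 there were 4 of 13 (Gdf10, Bmp2, Chrd and 1 of Bmp5), against 19.6% of all probe sets. With 1 probe set per gene, the brightest over all 10 arrays, the test ran on 18193 genes. In it 1 of the 9 genes was lower (Gdf10) and 1 higher (Bmp2), against 5.36% and 2.90% of all genes. The median log2 fold change was -0.08 over the 13 probe sets and 0.00 over all probe sets. The 95% confidence interval lay within a 1.5-fold change in either direction for 12 of the 13 probe sets and for 88.0% of all probe sets. The counts rest on 1 call in each direction, and neither call held in every setting.

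**Figure D1:**
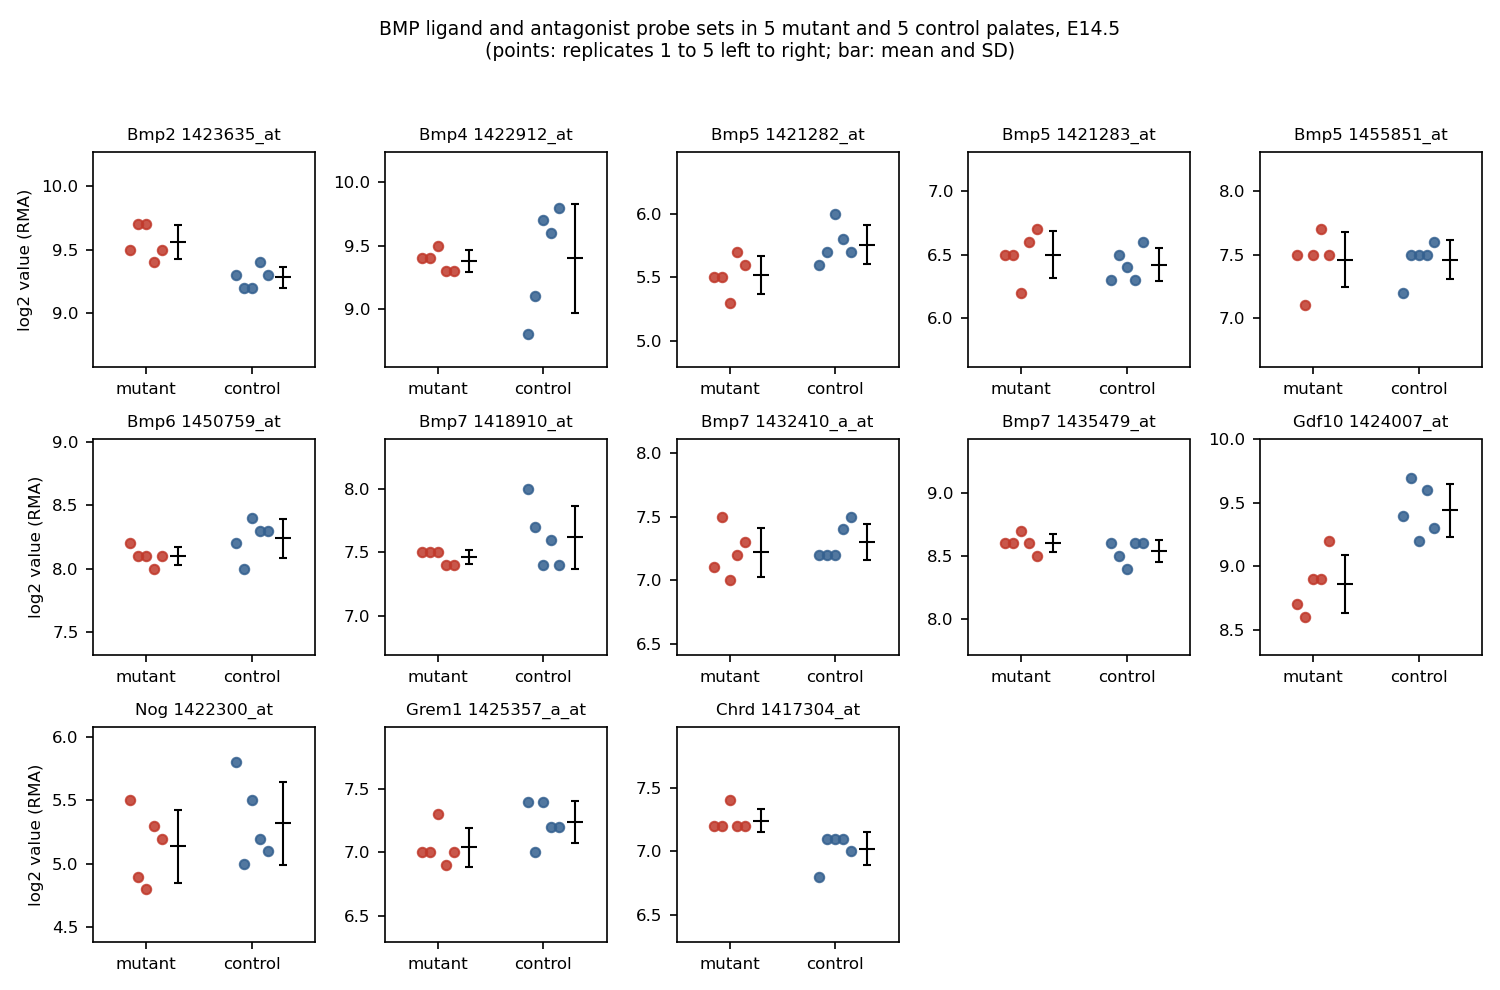
Log2 value of each of the 13 probe sets in 5 mutant (red) and 5 control (blue) arrays, 1 panel per probe set, with the mean and SD beside the points and axes of the same span. The mutant Gdf10 points reach down to 8.6, the control Bmp4 points spread over 1.0 unit, and the Chrd groups do not overlap.

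The clearest difference was in Gdf10, which encodes growth differentiation factor 10, also called BMP3b, the closest relative of BMP3. The gene lies on chromosome 14 (33923587 to 33936514, GRCm38.p6), and its probe set 1424007_at read 8.7, 8.6, 8.9, 8.9 and 9.2 in mutant replicates 1 to 5, against 9.4, 9.7, 9.2, 9.6 and 9.3 in control replicates 1 to 5. Every mutant array but replicate 5 lay below all control arrays, and mutant replicate 5 tied with control replicate 3 at 9.2. The mean was 8.86 ± 0.23 in mutant and 9.44 ± 0.21 in control arrays (SD, n = 5 each), so signal fell by 0.58 on the log2 scale, a 1.49-fold decrease (SE 0.13, 95% confidence interval -0.85 to -0.31, limma adjusted p = 0.0329 over probe sets and 0.0175 over genes).

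The Gdf10 difference kept its sign in all 21 other settings, from -0.67 to -0.52, while its call over all probe sets was held in 11 of them. It was lost without mutant replicate 1 (adjusted p = 0.0820), 2 (0.0757), 3 (0.0778) or 4 (0.0613), and without control replicate 2 (0.0591), 4 (0.0704) or 5 (0.0516). Over genes it was held when any 1 array was left out (limma adjusted p = 0.0118 to 0.0453). The Y-linked gene Eif2s3y was unevenly spread over the groups, at 5.1 in 1 and 9.0 or more in 4 mutant arrays, and at 3.2 or 3.3 in 3 and 9.0 or more in 2 control arrays. With its value as a covariate the Gdf10 difference was -0.55 (limma adjusted p = 0.0904 over probe sets and 0.0549 over genes). With the mean of the skeletal muscle markers as a covariate, a setting added after the data were seen, it was -0.57 with a standard error of 0.21 (adjusted p = 0.480), and that fit called 1 of all 45037 probe sets.

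The promoter of Gdf10 is shown because it was the only member called over all probe sets, and that of Bmp4 as an uncalled ligand gene of the same chromosome. Each is the 250 bases before the start site of the RefSeq table (GRCm38.p6), 5′ to 3′ on the gene's strand, chr14:33923337-33923586 on the plus strand for Gdf10 and chr14:46390670-46390919 on the minus strand for Bmp4. Capitals mark CAGAC on either strand, a short element that SMAD3 and SMAD4 bind.
Gdf10: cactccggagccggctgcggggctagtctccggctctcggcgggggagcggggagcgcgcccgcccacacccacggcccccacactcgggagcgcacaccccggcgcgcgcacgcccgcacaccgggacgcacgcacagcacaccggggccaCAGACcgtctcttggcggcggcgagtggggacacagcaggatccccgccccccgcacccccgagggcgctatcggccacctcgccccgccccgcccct
Bmp4: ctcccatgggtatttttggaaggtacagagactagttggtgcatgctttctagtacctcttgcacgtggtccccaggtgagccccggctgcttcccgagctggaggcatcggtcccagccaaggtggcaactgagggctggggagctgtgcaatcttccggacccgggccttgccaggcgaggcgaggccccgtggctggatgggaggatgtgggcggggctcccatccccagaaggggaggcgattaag
Gdf10 had 1 match, which begins at -98, and Bmp4 had none. CAGAC was present in 42.2% of the 32851 promoters of the table, and in 27.3% of the 1524 whose GC content was within 5 points of that of Gdf10 (78.8%). Of the 6 members found in the table, Bmp5, Bmp6 and Grem1 also had 1 match each and Chrd had none. GGCGCC, a GC-rich element of BMP SMADs that reads the same on both strands, was found in Grem1 and Chrd, whose GC content was 72.0% and 78.0%. It was in 9.59% of all promoters and in 43.6% of the 1524 of high GC content, a range that takes in Chrd but not Grem1. The Chrd window, chr16:20732877-20733126 on the plus strand, lies within the listed span of the gene (20731425 to 20742384). The palindrome GTCTAGAC was in none of the 6 and in 0.167% of all. A match of letters is a description and does not show that a factor binds there.

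Bmp2, a ligand that promotes bone formation and is expressed in palatal epithelium and mesenchyme, lay on the other side. Its probe set 1423635_at (chromosome 2, 133552159 to 133562896) read 9.5, 9.7, 9.7, 9.4 and 9.5 in mutant replicates 1 to 5, against 9.3, 9.2, 9.2, 9.4 and 9.3 in control replicates 1 to 5. The lowest mutant array tied with the highest control array at 9.4, and all other mutant arrays were above all controls. The mean was 9.56 ± 0.13 in mutant and 9.28 ± 0.08 in control arrays (SD, n = 5 each), a log2 fold change of 0.28 (SE 0.08, interval 0.11 to 0.45). This 1.21-fold difference was called over genes (limma adjusted p = 0.0382) and not over probe sets (0.0686).

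The Bmp2 difference was positive in all 21 other settings, and its call over genes was held when mutant replicate 4, control replicate 1 or control replicate 4 was left out. It was lost without mutant replicate 1 (limma adjusted p = 0.0655), 2 (0.0843), 3 (0.0932) or 5 (0.0626), and without control replicate 2 (0.0745), 3 (0.0889) or 5 (0.0675). With Eif2s3y as a covariate the log2 fold change was 0.23 (adjusted p = 0.136 over genes), and with rounding noise added to the values it was 0.26 (0.0524). With the skeletal muscle markers as a covariate it was 0.10 (adjusted p = 0.725 over genes), in a fit that called 1 of all 18193 genes. With the epithelial markers as a covariate the Bmp2 difference was 0.26 (limma adjusted p = 0.0351).

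**Figure D2:**
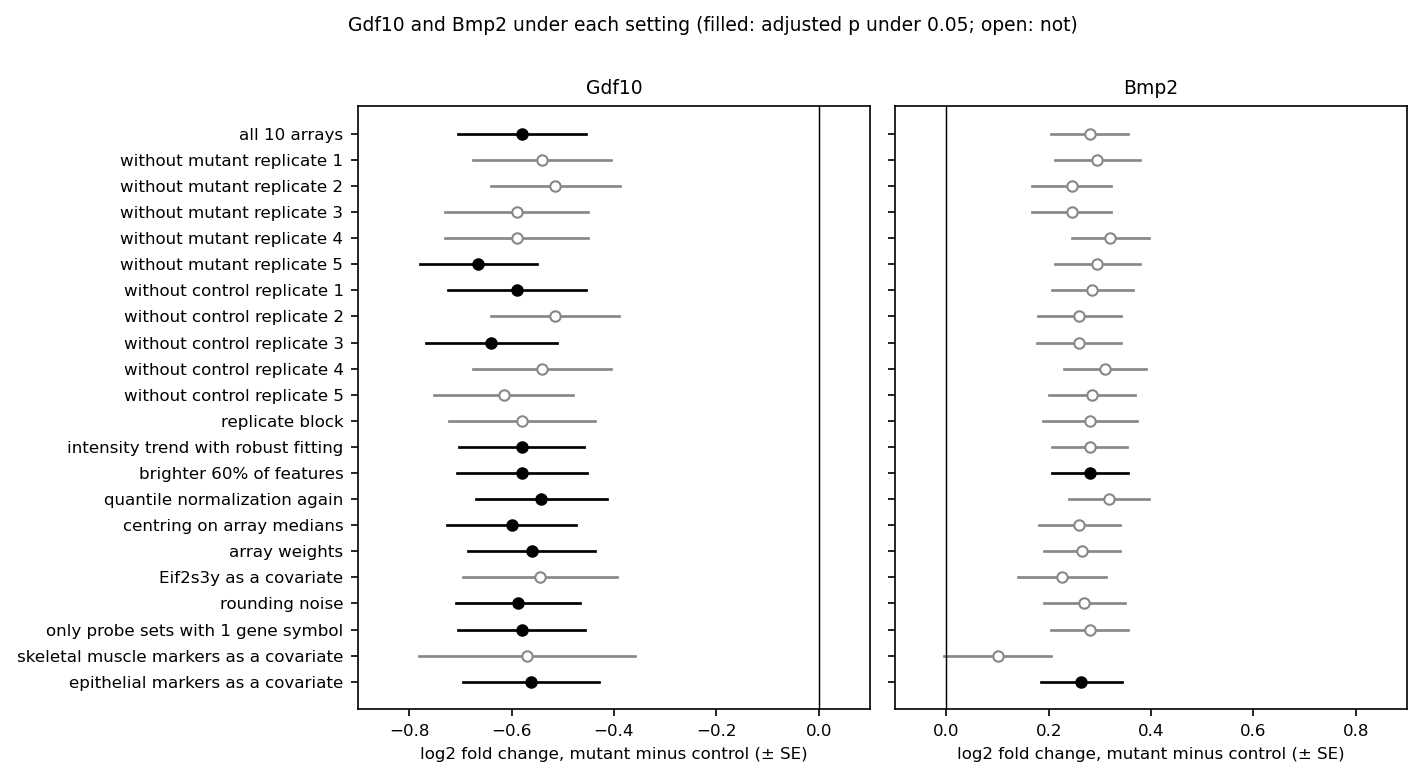
Log2 fold change, mutant minus control, with its standard error, for Gdf10 (left) and Bmp2 (right) with all 10 arrays and in 21 other settings of the fit over probe sets. Gdf10 stays between -0.67 and -0.52 throughout, and Bmp2 stays between 0.10 and 0.32, with the muscle covariate giving the smallest value.

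Bmp4, the ligand with an established role in anterior palate growth, had nearly equal means and very unequal spread. Probe set 1422912_at (chromosome 14, 46383525 to 46390669) read 9.4, 9.4, 9.5, 9.3 and 9.3 in mutant replicates 1 to 5, against 8.8, 9.1, 9.7, 9.6 and 9.8 in control replicates 1 to 5. The mutants stayed within 0.2 units and lay between a low pair of controls (replicates 1 and 2) and 3 high ones. The means were 9.38 ± 0.08 in mutant and 9.40 ± 0.43 in control arrays (SD, n = 5 each), and the log2 fold change was -0.02 (interval -0.39 to 0.35, limma adjusted p = 0.962). Leaving out 1 array at a time moved it from -0.17 to 0.08, so its direction depends on which array is left out. Its residual SD of 0.31 was higher than that of 91.1% of all probe sets.

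Msx1, the homeobox gene that acts with Bmp4 in palate and tooth mesenchyme of mice, is placed beside it after its values were seen. It read 8.9, 8.8, 8.0, 8.4 and 8.2 in mutant replicates 1 to 5, against 9.2, 7.9, 9.8, 9.9 and 9.7 in control replicates 1 to 5. Control replicates 3, 4 and 5 were the highest of all arrays for both genes, whereas in mutants Msx1 varied by 0.9 and Bmp4 by 0.2. These arrays were also the highest for Bmp6 and for the tooth germ markers Barx1, Dlx2, Lhx6 and Lhx8, though not for every tooth germ marker. The order of the controls is therefore not particular to Bmp4 and Msx1, and a link between the 2 genes was not tested. The log2 fold change of Msx1 was -0.84 and did not pass the test (SE 0.34, limma adjusted p = 0.147 over genes). Without control replicate 2 it was -1.19 and called (adjusted p = 0.00649). That was the only call for Msx1 in the 10 fits without 1 array (limma adjusted p up to 0.282).

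**Figure D3:**
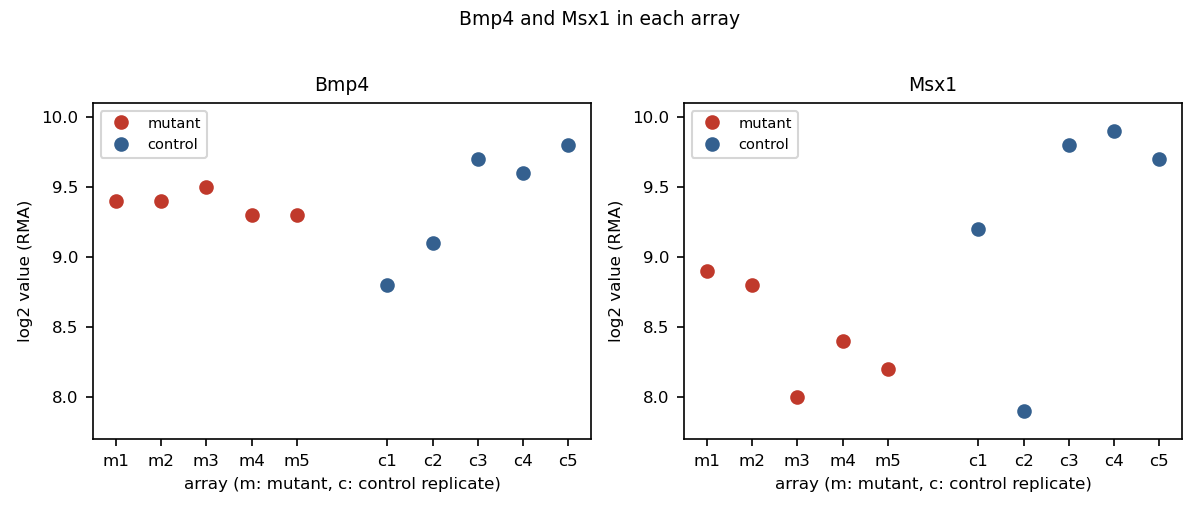
Log2 value of Bmp4 (left) and Msx1 (right) in each array, mutants (m1 to m5, red) before controls (c1 to c5, blue), on the same axis. Control replicates 3 to 5 are the highest arrays in both panels, and the mutant Bmp4 values lie between 9.3 and 9.5.

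Bmp7 and Bmp5 had 3 probe sets each, which gave small differences of both signs. For Bmp7, a ligand related to Bmp5 and Bmp6, the brightest probe set 1435479_at read 8.6, 8.6, 8.7, 8.6 and 8.5 in mutant replicates 1 to 5, against 8.6, 8.5, 8.4, 8.6 and 8.6 in control replicates 1 to 5. Its log2 fold change was 0.06 (interval -0.08 to 0.20, limma adjusted p = 0.638) and its residual SD of 0.08 exceeded that of 8.53% of all probe sets. Probe set 1418910_at read 7.5, 7.5, 7.5, 7.4 and 7.4 in mutants, against 8.0, 7.7, 7.4, 7.6 and 7.4 in controls, a difference of -0.16 (-0.39 to 0.07, limma adjusted p = 0.437) in which control replicate 1 was the highest array. Without that array the difference was -0.07. Probe set 1432410_a_at read 7.1, 7.5, 7.0, 7.2 and 7.3 in mutants, against 7.2, 7.2, 7.2, 7.4 and 7.5 in controls, a difference of -0.08 (-0.30 to 0.14). The groups overlapped in all 3, and no Bmp7 change past 1.5-fold lay within any of the intervals.

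For Bmp5, a ligand known for its role in the growth of skeletal elements, the brightest probe set 1455851_at read 7.5, 7.1, 7.5, 7.7 and 7.5 in mutant replicates 1 to 5, against 7.2, 7.5, 7.5, 7.5 and 7.6 in control replicates 1 to 5. The means were both 7.46 and the log2 fold change was 0.00 (interval -0.24 to 0.24). Probe set 1421283_at read 6.5, 6.5, 6.2, 6.6 and 6.7 in mutants, against 6.3, 6.5, 6.4, 6.3 and 6.6 in controls, a difference of 0.08 (-0.13 to 0.29, limma adjusted p = 0.689). The dimmest, 1421282_at, read 5.5, 5.5, 5.3, 5.7 and 5.6 in mutants, against 5.6, 5.7, 6.0, 5.8 and 5.7 in controls. Its difference of -0.24 had an interval that left out 0 (-0.44 to -0.04) but was not called (limma adjusted p = 0.179), and the 2 brighter probe sets did not share its sign.

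Bmp6, another ligand of the Bmp5 and Bmp7 group, read 8.2, 8.1, 8.1, 8.0 and 8.1 in mutant replicates 1 to 5, against 8.2, 8.0, 8.4, 8.3 and 8.3 in control replicates 1 to 5 (probe set 1450759_at, chromosome 13). Controls 3, 4 and 5 were above every mutant array, and control replicate 2 was level with the lowest mutant. The means were 8.10 ± 0.07 in mutant and 8.24 ± 0.15 in control arrays (SD, n = 5 each), a log2 fold change of -0.14 that was not called (interval -0.31 to 0.03, limma adjusted p = 0.352).

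Among the antagonists none was called, and their differences ran in both directions. Chrd, which encodes chordin, read 7.2, 7.2, 7.4, 7.2 and 7.2 in mutant replicates 1 to 5, against 6.8, 7.1, 7.1, 7.1 and 7.0 in control replicates 1 to 5 (probe set 1417304_at, chromosome 16). All mutant arrays lay above all control arrays, as was the case for 1.45% of all probe sets (4.87% were separated in either direction). The means were 7.24 ± 0.09 in mutant and 7.02 ± 0.13 in control arrays (SD, n = 5 each), a log2 fold change of 0.22 (interval 0.05 to 0.39, limma adjusted p = 0.138 over probe sets and 0.0886 over genes). The gap between the groups was 0.1, which is 1 step of the rounded values.

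Grem1, which encodes gremlin 1, read 7.0, 7.0, 7.3, 6.9 and 7.0 in mutant replicates 1 to 5, against 7.4, 7.0, 7.4, 7.2 and 7.2 in control replicates 1 to 5 (probe set 1425357_a_at, chromosome 2). Mutant replicate 3 and control replicate 2 crossed into the other group. The log2 fold change was -0.20 (interval -0.41 to 0.01, limma adjusted p = 0.284). Nog, which encodes noggin, was the dimmest member at 5.5, 4.9, 4.8, 5.3 and 5.2 in mutant replicates 1 to 5, against 5.8, 5.0, 5.5, 5.2 and 5.1 in control replicates 1 to 5 (probe set 1422300_at, chromosome 11). Its groups overlapped over most of their range, and the log2 fold change was -0.18 (interval -0.55 to 0.19, limma adjusted p = 0.594). It was -0.06 without control replicate 1, -0.10 without mutant replicate 3 and -0.27 without mutant replicate 1.

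**Figure D4:**
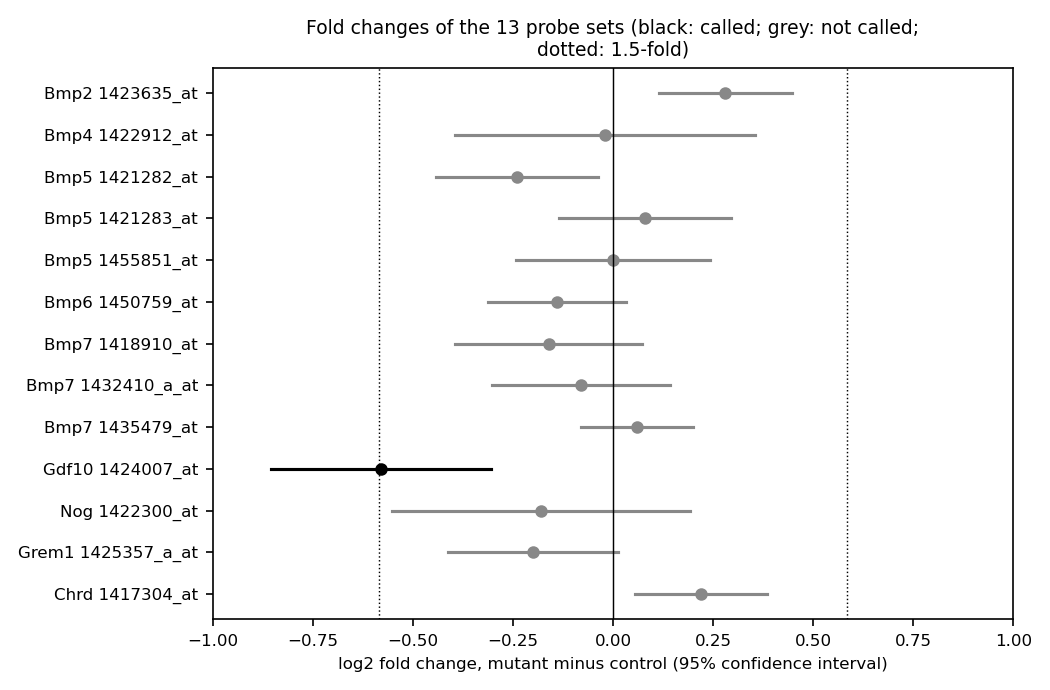
Log2 fold change, mutant minus control, with its 95% confidence interval for each of the 13 probe sets. The black Gdf10 interval, -0.85 to -0.31, is the only one of a called probe set and the only one that crosses a dotted 1.5-fold line.

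The members differed in how much they varied within groups. The residual SD ran from 0.08 for the brightest Bmp7 probe set to 0.31 for Bmp4 and Nog, with a median of 0.16, against a median of 0.14 over all probe sets. Mutant replicate 3 was the mutant array farthest from its group mean for 5 of the 13 probe sets, against 16.0% of all probe sets.

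Genes with the pattern most like Gdf10 over the 10 arrays were Myh11, Kntc1 and Ccna2, with a mean absolute difference of 0.110, 0.120 and 0.124 between the centred profiles, where Gdf10 itself deviated by 0.300 from its own mean. Myh11 encodes smooth muscle myosin heavy chain, Kntc1 a kinetochore protein and Ccna2 cyclin A2, and their log2 fold changes were -0.52, -0.50 and -0.54. Fold changes near that of Gdf10 follow from the choice of genes by profile. The genes most like Bmp2 were Pax6os1, Plec and Scnn1b, with mean absolute differences of 0.036, 0.054 and 0.054 against a deviation of 0.144 for Bmp2 itself. Pax6os1, a noncoding transcript, stayed between 3.6 and 4.2 on the log2 scale, near the low end of the arrays. Myh11 (means 5.48 in mutant and 6.00 in control arrays) and Scnn1b (5.70 and 5.36) were also under the array medians of 6.4 to 6.5. Plec encodes the cytoskeletal linker plectin and Scnn1b a sodium channel subunit.

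Most of the other genes of the pathway were not called either. Of 65 listed 61 were measured, and over genes 1 was higher, 1 lower and 59 were not called, against 2.90% higher and 5.36% lower of all genes. Their median log2 fold change was 0.00, the same as that of all genes. Centring the gene values on array medians turned the split of calls over all genes, to 1283 higher and 474 lower against 528 and 975 without it, and called 6 of the 61 higher and 1 lower.

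The 12 receptors and coreceptors included the decrease, that of Hjv, which encodes hemojuvelin, a BMP coreceptor of liver and skeletal muscle. Hjv read 5.4, 5.4, 5.2, 6.1 and 5.8 in mutant replicates 1 to 5, against 6.2, 6.3, 6.4, 6.3 and 7.3 in control replicates 1 to 5. All mutant arrays lay below all controls, and signal fell by 0.92 (SE 0.22, limma adjusted p = 0.0267 over genes). The call was lost without mutant replicate 1, 2 or 3 and without control replicate 3 (adjusted p = 0.0647, 0.0644, 0.0701 and 0.0548). With the muscle markers as a covariate the difference was -0.11 (limma adjusted p = 0.843). Those markers themselves differed between the groups, and that fit called 1 of all 18193 genes. The part of muscle in the Hjv difference was not tested. Bmpr1a and Bmpr2, the main type I and type II receptors for BMP2 and BMP4, had equal means in both groups, 11.22 and 10.98, with intervals of -0.13 to 0.13 and -0.14 to 0.14.

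Of 11 target genes of the pathway 1 was called. Id4, which encodes an inhibitor of basic helix-loop-helix factors, read 10.9, 10.9, 11.0, 10.9 and 11.1 in mutant replicates 1 to 5, against 10.5, 10.5, 10.7, 10.9 and 10.7 in control replicates 1 to 5. Its groups met at 10.9, and it was 0.30 higher in mutants (SE 0.08, limma adjusted p = 0.0460 over genes). That call was lost when any array but control replicate 4 was left out (adjusted p = 0.0664 to 0.103 without each of the others). Id1, a direct target of BMP SMADs, averaged 10.60 in both groups (interval -0.13 to 0.13), Id2 differed by 0.06 and Id3 by 0.10, and these 3 were not called. Atoh8 (0.24, limma adjusted p = 0.0765), Msx2 (-0.24, 0.0917) and Tbx3 (-0.26, 0.121) were not called either. Their unadjusted limma p was 0.00866, 0.0125 and 0.0205, where 19.6% of all probe sets had one under 0.05. Of the 11 targets 6 had positive and 4 negative log2 fold changes.

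No gene was called in the other 4 lists. Sostdc1, whose product binds BMPs and inhibits Wnt signalling, had the smallest p among 16 further antagonists (-0.54, SE 0.15, limma adjusted p = 0.0504). Without control replicate 2 it was -0.70 and called (0.00181). That was the only call for Sostdc1 in the 10 fits without 1 array (limma adjusted p up to 0.114). Bmp8b had the smallest p among 7 further ligands (0.32, SE 0.10, limma adjusted p = 0.0803). Without control replicate 1 it was 0.42 higher and called (0.00806), its only call in the 10 such fits (limma adjusted p up to 0.176). All 7 of these ligands had positive log2 fold changes, from 0.14 to 0.32, on probe sets that were dim in both groups, where 59.4% of the 8096 genes with a mean level under 7 were positive, with a median of 0.04. Smad4, the SMAD shared by TGF-beta and BMP signalling, led 8 SMAD and SMURF genes (0.14, SE 0.06, limma adjusted p = 0.155). Tll1, a protease that cuts chordin, led 7 processing enzymes (0.24, SE 0.13, limma adjusted p = 0.276).

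**Figure D5:**
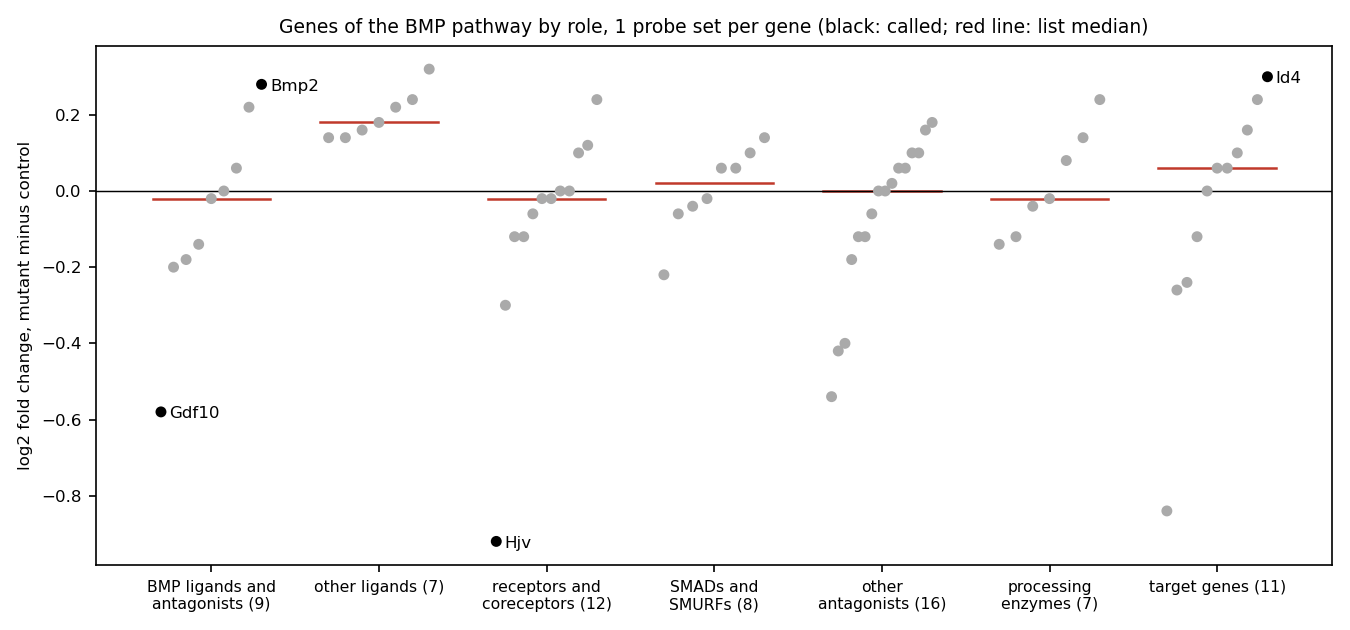
Log2 fold change, mutant minus control, of 9 members and of the other pathway genes by role, 1 probe set per gene, with called genes in black and the median of each list as a red line. The 4 called genes are Gdf10, Bmp2, Hjv and Id4, and the list of 7 further ligands has its median at 0.18.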

How the data were processed

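Each sample was 1 array. The deposited log2 values per probe set came from RMA, a step credited to the authors by the submitters' processing notes, with no version stated; RMA subtracts background, quantile-normalizes arrays and summarizes probes. The values are in steps of 0.1. Small differences are therefore ties or single steps. All columns belonged to a sample. The 64 array control probe sets were left out. Of 45101 probe sets the platform annotation named 1 gene for 34958, several for 932 and none for 9211; symbols were updated through the Entrez ID in a RefSeq table (GRCm38.p6, 34754 found), which also gave positions.

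Mutant minus control was fitted with limma 3.58.1 in R 4.3.3 (lmFit and eBayes, no filter or covariate, two-sided, Benjamini-Hochberg over 45037 probe sets, or over 18193 genes with the brightest probe set of each). On arrays simulated for this comparison with 45037 probe sets, the fit found 2 of 50 true 1.2-fold changes, 29 of 50 at 1.5-fold, 45 of 50 at 2-fold and 49 of 50 at 3-fold, with 7 false calls. Simulated noise was independent, normal and of equal spread in both groups, with no outlying array. These rates need not hold for the real arrays. Alternatives were each array left out, a replicate block, an intensity trend with robust fitting, the brighter 60% of features, array weights, centring on array medians, a second quantile normalization, Eif2s3y as a covariate, rounding noise, only probe sets with 1 symbol, and the mean of a gene's probe sets. The muscle and epithelial covariates were chosen after seeing the data.

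The members and lists were chosen with earlier results of these data known. Named are all members, called genes of the 6 other pathway lists or the 1 with the smallest p, and, for called members, the 3 genes (no members, clones or predicted genes) with the smallest mean absolute difference of centred values over 10 arrays. Bmpr1a, Bmpr2, Msx1, Id1, Id2, Id3, Atoh8, Msx2, Tbx3, Barx1, Dlx2, Lhx6 and Lhx8 were added after their values were seen. The number of arrays limits the precision.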

Additional observations from a re-analysis of the deposited data

Results flagged for a closer look

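Among the 26 groups of 5 values (13 probe sets in 2 groups), 3 had 1 array far from the other 4. In these 3 the gap to the nearest array took up most of the group's range. A chance rate of about 1 in 20 holds for unrounded, normally distributed values. It need not hold for these rounded values, which are often tied, so whether 3 of 26 exceeds chance was not tested. The value of control replicate 1 for Bmp5 probe set 1455851_at was 7.2, which is 0.3 below the next control in a range of 0.4. Mutant replicate 3 was the highest mutant for Grem1 at 7.3, 0.3 above the next in a range of 0.4. The same array was the highest mutant for Chrd at 7.4, where the other 4 mutants were equal, so a gap of 0.2 was the whole range.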

How the results depend on the processing

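The differences of Gdf10 and Bmp2 kept their direction in all 21 other settings at each level, whereas the number of calls moved. Over the 13 probe sets the count of lower calls was 1 with all arrays and 0 to 1 when 1 array was left out, the count of higher calls being 0 throughout. Over the 9 genes 1 was lower whichever array was left out, and 0 to 1 higher. Of the 61 other pathway genes 0 to 4 were lower and 0 to 2 higher when 1 array was left out. Same-numbered samples did not deviate together (correlations -0.0639 to 0.0756, 0 of 5 over 0.1). These correlations cannot exclude a pairing by number, and the labels do not state whether there was one. With a replicate block 34 probe sets were higher and 64 lower over the array, against 484 and 983 without it, the members had 0 lower probe sets (Gdf10 limma adjusted p = 0.121), 0 lower genes (0.0706) and 0 higher genes (Bmp2, 0.120), and 0 other pathway genes were higher. With Eif2s3y as a covariate, and with the skeletal muscle markers as a covariate, the members had 0 lower probe sets, 0 lower genes and 0 higher genes, and the other pathway genes had 0 lower and 0 higher. The muscle covariate left 0 higher and 1 lower of all 45037 probe sets (0 and 1 of all genes). With the epithelial markers as a covariate 2 probe sets of members were lower (Gdf10, adjusted p = 0.0203, and Bmp7 1418910_at, 0.0306) and 2 higher (Bmp2, 0.0483, and Chrd, 0.0432), 2 member genes were higher, and 4 other pathway genes were lower and 6 higher. It called 2897 higher and 3579 lower of all probe sets. Among the brighter 60% of features 1 member probe set was higher (Bmp2, adjusted p = 0.0491), and Hjv was below that limit. Centring on array medians, which moved the median of all genes by 0.08, gave 2 higher member genes and 6 higher other pathway genes. Rounding noise left 0 higher member genes (Bmp2, adjusted p = 0.0524) and 0 higher other pathway genes. Other pathway genes were lower and higher in 7 and 3 cases with array weights and in 2 and 2 after quantile normalization again, and 2 were lower with an intensity trend and with a gene's probe sets averaged. Array weights called 1131 higher and 1768 lower of all probe sets, and leaving out mutant replicate 3 called 125 and 339. The cause of these shifts was not tested. Low signal limits Nog and the dimmer of the further ligands, and values rounded to 0.1 limit every difference of that size.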
